A study of Mus musculus with 16 samples.

Results

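The Hox cluster genes were examined as the rows of the deposited table whose symbols name a gene of the HoxA, HoxB, HoxC or HoxD cluster by its letter and number. This rule used no measured value, and it took 39 of the 23420 genes in the table, with 11 genes of HoxA, 10 of HoxB, 9 of HoxC and 9 of HoxD. Of these 39 genes, 25 had at least 1 count in at least 1 of 16 livers, 8 had a count in every liver and 14 had none. RNA came from the livers of male C57BL/6J wild-type mice, and all 4 groups of 4 mice received a high-fat diet (HFD) with 45% fat, so that no group is lean. The FEN-HFD groups received this diet with 0.04% fenretinide, a synthetic retinoid. Feeding lasted 20 weeks in 1 cohort and 7 days in a separate cohort, each with both diets. Duration, age and cohort therefore cannot be told apart, and the sources used here do not give the ages.

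Hox genes encode homeodomain transcription factors that give cells of the embryo their position along the head-to-tail axis. Genes in different clusters that carry the same number descend from a common ancestor and form a paralog group. Low numbers lie at the 3′ end of a cluster and are used in anterior regions, and high numbers lie at the 5′ end and are used in posterior regions. Retinoic acid binds receptors (RAR with RXR) on DNA elements made of repeated hexamers, and 3′ Hox genes are among its classical targets in the embryo. The same receptors switch on Cyp26a1, whose enzyme degrades retinoic acid, and Rarb, which encodes one of the receptors. Adult tissues keep part of their embryonic Hox pattern, largely in cells other than the main epithelial cell.

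Promoter sequence was looked at because Hoxd4, the Hox gene called between the diets, could be set beside Hoxb4, the Hox gene with the most counts, and beside Cyp26a1 and Rarb. The RefSeq windows of GRCm38.p6 (the mm10 build) run from 250 bases before a gene's start to 50 bases after it. They lie at chr2:74721728-74722027 (plus strand) for Hoxd4, at chr11:96318017-96318316 (plus strand) for Hoxb4, at chr19:37697558-37697857 (plus strand) for Cyp26a1 and at chr14:16575427-16575726 (minus strand) for Rarb. Each is written 5′ to 3′ on the strand of its gene. Capitals mark the hexamers AGGTCA and GGTTCA on either strand in the Hox genes, and DR5, a direct repeat of the receptor hexamer with 5 bases between, in the other windows.
Hoxd4: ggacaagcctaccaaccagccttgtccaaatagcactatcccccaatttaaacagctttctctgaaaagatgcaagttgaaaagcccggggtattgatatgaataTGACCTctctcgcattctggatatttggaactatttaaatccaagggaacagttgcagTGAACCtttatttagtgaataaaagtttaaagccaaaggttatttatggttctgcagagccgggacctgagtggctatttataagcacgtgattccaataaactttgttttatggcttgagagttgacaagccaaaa
Hoxb4: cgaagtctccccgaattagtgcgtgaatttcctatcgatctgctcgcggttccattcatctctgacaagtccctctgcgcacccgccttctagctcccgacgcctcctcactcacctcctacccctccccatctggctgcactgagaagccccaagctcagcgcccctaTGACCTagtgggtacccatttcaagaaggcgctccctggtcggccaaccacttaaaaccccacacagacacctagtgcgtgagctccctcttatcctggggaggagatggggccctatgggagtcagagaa
Cyp26a1: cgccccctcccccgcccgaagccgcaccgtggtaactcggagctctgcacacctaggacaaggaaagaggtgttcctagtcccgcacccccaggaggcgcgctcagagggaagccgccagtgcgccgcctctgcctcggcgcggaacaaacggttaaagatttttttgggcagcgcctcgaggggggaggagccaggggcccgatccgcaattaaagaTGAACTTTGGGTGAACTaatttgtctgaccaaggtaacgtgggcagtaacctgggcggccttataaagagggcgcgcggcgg
Rarb: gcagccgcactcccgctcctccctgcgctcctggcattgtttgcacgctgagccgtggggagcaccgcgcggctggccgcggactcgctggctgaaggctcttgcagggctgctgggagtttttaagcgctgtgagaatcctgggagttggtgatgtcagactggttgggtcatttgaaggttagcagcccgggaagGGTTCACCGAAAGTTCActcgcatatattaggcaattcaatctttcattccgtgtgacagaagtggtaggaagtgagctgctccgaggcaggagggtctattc

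A DR5 was found in the windows of Cyp26a1 and Rarb and in 0.0974% of 32851 RefSeq windows, on either strand. None of the 24 windows of 22 Hox genes held a DR5, a DR2 (0.268% of all windows) or a DR1 (0.222%). At shares this low a match is rare in any 24 windows, so finding none says little about the Hox genes. Bases outside the windows were not searched. The window of Hoxd4 held AGGTCA and GGTTCA, both on the opposite strand and 145 and 87 bases before the start. AGGTCA alone occurred in 16.3% of all windows and in 7 of the Hox windows, and GGTTCA in 10.4% and in 3, so that single hexamers are common. These are matches of letters within 300 bases and not sites shown to be bound. The single hexamers GGGTCA and AGTTCA, which like the others can lie inside a direct repeat, occurred in 13.7% and 14% of all windows and in 1 and 2 of the Hox windows.

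Total counts ran from 19218230 to 32546829 per library. The library of FEN-HFD mouse 29 (20 weeks) stood apart, with 53.1% of its counts from Rn45s, the precursor of ribosomal RNA, against 0.466% to 1.46% in the other 15 libraries. Without Rn45s and Lars2 it held 8357336 counts, against 19020438 to 32327613 in the others, so Hox values rest on fewer reads there. Levels are given as CPM, the usual unit of counts set against library size, with each library total scaled by its TMM factor over all 16 libraries. A count of 0 allows up to 3 counts, which is 0.0857 to 0.312 CPM depending on the library, for counting error only. Hepatocyte markers were abundant in every liver (52014 to 81794 CPM summed over 6 genes, none at 0). Each library is labelled with its own mouse number, so the p-values measure the spread between these mice.

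Hox RNA was scarce in these livers and came from the anterior part of the clusters. The 39 genes gathered 2042 counts over the 16 libraries, and 61 to 214 counts in any single library. Paralog groups 1 to 8 held 2034 of these counts, in 20 of their 23 genes. Paralog groups 9 to 13 held 8 counts, in 5 of their 16 genes. HoxB supplied 56.7% of the counts, HoxA 29.9%, HoxD 12.3% and HoxC 1.13%. The genes with no count in any library were Hoxa13, Hoxb1, Hoxb9, Hoxb13, Hoxc8, Hoxc9, Hoxc10, Hoxc11, Hoxc12, Hoxc13, Hoxd1, Hoxd10, Hoxd12 and Hoxd13.

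**Figure D1:**
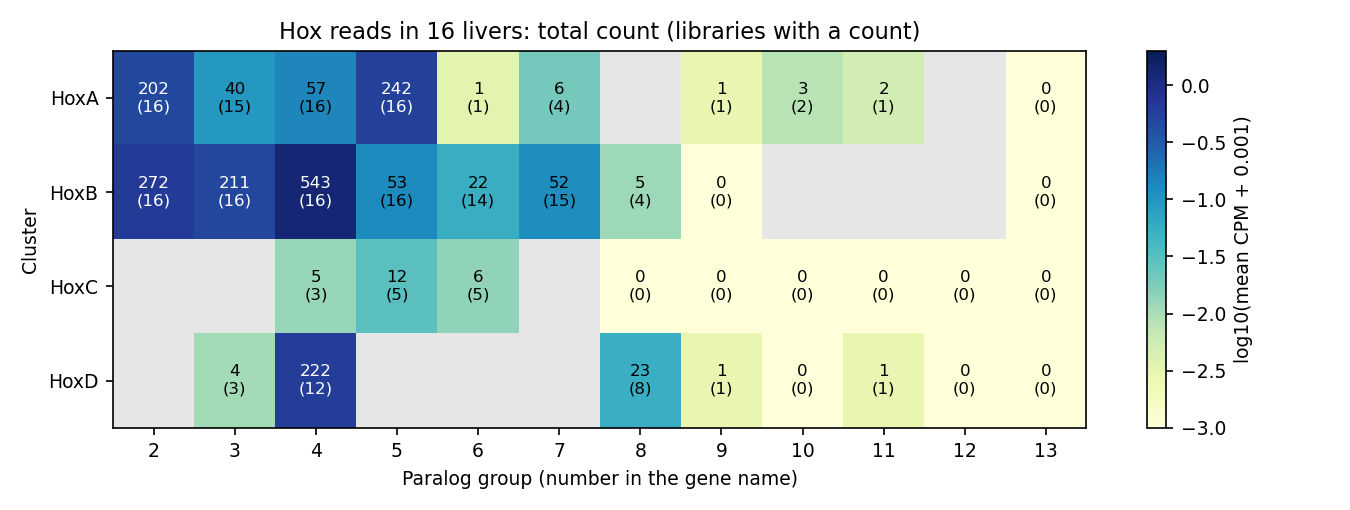
Hox genes by cluster (rows) and paralog group (columns, from 2 to 13), with the total count over 16 livers and, in brackets, the number of libraries with a count. Colour gives log10 of the mean CPM plus 0.001, and grey squares have no mouse gene. Counts gather in paralog groups 2 to 5 of HoxA and HoxB and in Hoxd4, while HoxC and paralog groups 9 to 13 are nearly empty.

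Only 6 Hox genes had enough counts to be kept by the filter on low counts in at least 1 comparison: Hoxa2, Hoxa5, Hoxb2, Hoxb3, Hoxb4 and Hoxd4. They held 1692 of the 2042 counts (82.9%). Hoxb4, known for cervical vertebral identity and for the expansion of blood stem cells, was the most abundant per length of exon, with a median of 0.495 CPM per kb (0.333 to 0.690, n = 16). Hoxa5, which patterns the neck and lung, had 0.306 CPM per kb (0.139 to 0.581), and Hoxa2, which patterns the hindbrain and branchial arches, had 0.258 (0.148 to 0.501). Hoxb2 and Hoxb3, both hindbrain genes, had medians of 0.190 (0.0901 to 0.290) and 0.103 CPM per kb (0.0468 to 0.204). Neighbours in this order overlapped in range, whereas Hoxb4 and Hoxb3 did not overlap per kb. The order depends on the lengths, which are merged GENCODE M21 exons, and the annotation used for counting is not known. For Hoxb2 this length, 3.488 kb, exceeds the whole span of its RefSeq gene (chr11:96351632-96354020). Median CPM not divided by length was 1.27 for Hoxb4, 0.663 for Hoxb2, 0.574 for Hoxa5, 0.459 for Hoxa2 and 0.440 for Hoxb3. Antisense RNA can add to these levels where counting ignores strand, since exons of Hoxb3os cover 52.9% of the exonic bases of Hoxb3 and 27.3% of those of Hoxb2.

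A further 19 Hox genes had counts but too few for any comparison. Among these, Hoxa4 and Hoxb5 had counts in all 16 libraries, Hoxa3 and Hoxb7 in 15 and Hoxb6 in 14, with totals from 22 (Hoxb6) to 57 (Hoxa4) in these 5 genes. Hoxd8 had 23 counts in 8 libraries and Hoxc5 had 12 counts in 5. Another 11 genes, Hoxa6, Hoxa7, Hoxa9, Hoxa10, Hoxa11, Hoxb8, Hoxc4, Hoxc6, Hoxd3, Hoxd9 and Hoxd11, had 1 to 6 counts each. Posterior counts came almost entirely from 1 liver. HFD mouse 143 (7 days) had 7 of the 8 counts of paralog groups 9 to 13 and the most Hox genes with a count, 21 against 10 to 17 in the other libraries.

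HFD mouse 45 (20 weeks) stood apart in the low-count genes. It had 8 counts of Hoxc5 against 0 to 1 in the other HFD mice of 20 weeks and 3 counts of Hoxc4 against 0 to 1. This library also held 1119 CPM summed over 5 skeletal muscle markers (Acta1, Ckm, Myh1, Myh4 and Tnnt3, none at 0), against 0 to 3.07 CPM in every other library. HFD mouse 143 had 909 CPM of 6 Kupffer cell markers (none at 0) against 403 to 480 in the other HFD mice of 7 days. The part of these markers in the Hox counts was not tested. Fewer cells of a type and less RNA per cell cannot be told apart in bulk liver.

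The comparison of FEN-HFD with HFD at 20 weeks asks how long feeding with fenretinide changed the liver on the same diet, and in it Hoxd4 rose from 4 counts in 4 HFD livers to 207 counts in 4 FEN-HFD livers. Hoxd4 is a paralog group 4 gene of cervical vertebrae and hindbrain. It had 0, 0, 3 and 1 counts in HFD mice 25, 28, 33 and 45, which is 0, 0, 0.0982 and 0.0404 CPM. It had 89, 61, 44 and 13 counts in FEN-HFD mice 21, 22, 24 and 29, which is 3.33, 2.39, 2.21 and 1.35 CPM. All 4 treated livers lay above all 4 HFD livers, and the lowest treated value came from the library rich in Rn45s. The log2 fold change was 5.88 ± 0.61 (SE, n = 4 against 4; adjusted p = 0.00464, edgeR quasi-likelihood test with Benjamini-Hochberg adjustment over 13010 genes). Hoxd4 ranked 4 by log2 fold change among the 100 genes called higher. This rank rests on 0 to 3 counts per HFD liver, where a fold change is large and poorly fixed. It is therefore a description, since the gene passed the filter on low counts only through the FEN-HFD group.

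From summed counts, 207 with fenretinide and 4 without, the level was 72.2 times as high, with an exact binomial 95% interval of 27.8 to 267 that covers counting error only. An exact permutation test of the 8 CPM values gave p = 0.0286 (two-sided), the smallest that 4 against 4 allows. The lack of overlap given above fixes this p-value, so it adds no further support. Without mouse 29 the log2 fold change was 6.07 (adjusted p = 0.00121, edgeR), and without mouse 45, the library with muscle markers, it was 5.94 (adjusted p = 0.00789, edgeR). Leaving out each of the 8 mice in turn gave 5.46 to 7.10. When at least 10 counts were required in every library, Hoxd4 was removed and no Hox gene was called of the 1 still tested.

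Hoxd4 was the only one of 6 tested Hox genes called at 20 weeks, where 1.86% of all genes tested were called in either direction and 0.769% were called higher. It was also the only one with no overlap between groups, which 12.8% of all genes tested showed. Hoxd4 passed the filter on low counts only through the FEN-HFD group of 20 weeks, where it is high, so its call among the 6 genes is a description and is not read against these shares. Hoxb4 had 1.22 ± 0.18 CPM (SD, n = 4) on the HFD and 1.33 ± 0.35 CPM (n = 4) with fenretinide. The individual values were 1.36, 1.27, 0.949 and 1.29 CPM in HFD mice 25, 28, 33 and 45, and 1.50, 1.29, 0.854 and 1.66 CPM in FEN-HFD mice 21, 22, 24 and 29. These groups overlapped, with a log2 fold change of 0.11 ± 0.27 (SE; adjusted p = 0.862, edgeR).

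The other 4 tested genes also had overlapping groups at 20 weeks. Hoxa5 had a log2 fold change of 0.27 ± 0.48 (SE) and Hoxb2 of -0.27 ± 0.30. Hoxb3 had -0.33 ± 0.39 and Hoxa2 had -0.45 ± 0.40, with adjusted p from 0.590 to 0.802 for these 4 genes (edgeR). With standard errors of 0.30 to 0.48, small changes of these genes were not detectable. The median log2 fold change of the 6 Hox genes was -0.08, beside 0.01 over all genes tested. Without HFD mouse 45, the library with muscle markers, it was -0.01, beside 0.02 over all genes. DESeq2 likewise called Hoxd4 (log2 fold change 6.08 ± 0.82, adjusted p = 9.6e-11) and no other Hox gene, with 7.27% of all genes called by it.

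**Figure D2:**
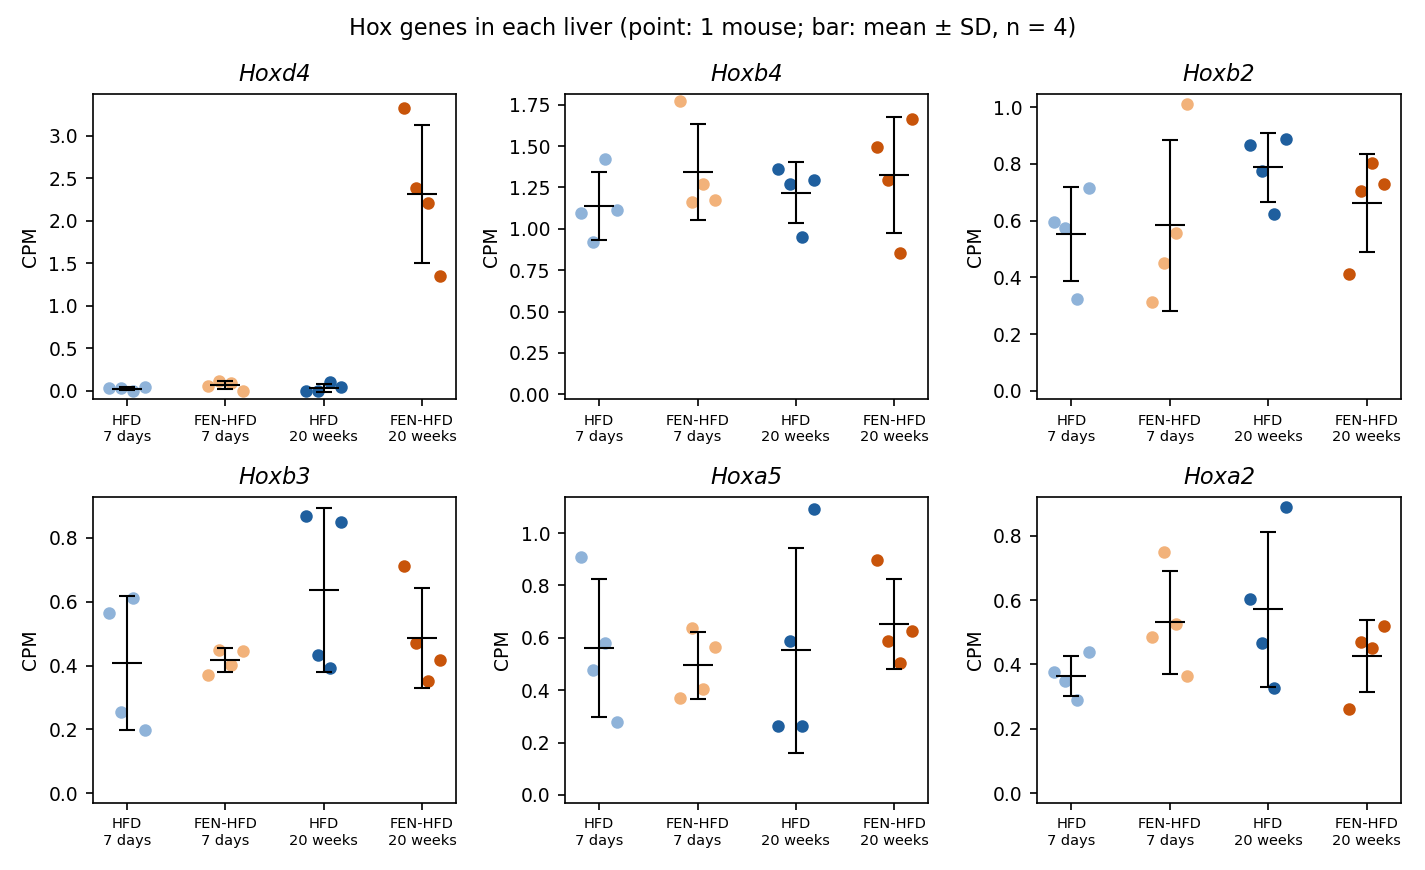
CPM of the 6 tested Hox genes in each of 16 livers, where each point is 1 mouse and the black bar is the mean ± SD of 4 mice. Hoxd4 lies between 1.35 and 3.33 CPM in the FEN-HFD livers of 20 weeks and at or below 0.112 CPM in the other 12, while the groups of the other 5 genes overlap.

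Summed over all 39 genes, Hox RNA was 4.81 ± 1.52 CPM (SD, n = 4) on the HFD and 6.76 ± 0.95 CPM (n = 4) with fenretinide at 20 weeks. Without Hoxd4 the sums were 4.78 ± 1.53 and 4.44 ± 0.61 CPM. These were 4.98, 4.16, 3.17 and 6.79 CPM in HFD mice 25, 28, 33 and 45, the last from the library with muscle markers. In FEN-HFD mice 21, 22, 24 and 29 they were 4.68, 4.50, 3.57 and 4.99 CPM, so the groups overlapped. Hoxd4 made up 0.748% of Hox counts in the HFD group (4 of 535, exact 95% interval 0.204% to 1.90%) and 36.6% in the FEN-HFD group (207 of 566, 32.6% to 40.7%). These intervals pool the counts of 4 mice and cover counting error only, not the spread between mice. Hoxd4 held 89 of 214 Hox counts in FEN-HFD mouse 21 and 61 of 176 in mouse 22. It held 44 of 115 in mouse 24 and 13 of 61 in mouse 29. Per length, Hoxd4 reached 0.787 ± 0.275 CPM per kb (SD, n = 4) with fenretinide, beside 0.517 ± 0.136 for Hoxb4, and the ranges of the 2 genes overlapped (0.459 to 1.13 and 0.333 to 0.649).

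Summed cell type markers at 20 weeks are given here beside Hoxd4. Hepatocyte markers summed to 67178 to 78892 CPM on the HFD and 52014 to 64735 CPM with fenretinide, and Kupffer cell markers to 316 to 386 and 405 to 947 CPM, neither pair overlapping. The hepatocyte sum follows Alb, the most abundant of its genes, with a mean of 51060 CPM on the HFD and 34665 CPM with fenretinide. Alb and Ttr had lower means with fenretinide and Apoa1, Cyp2e1, Cps1 and Serpina1c had higher ones, and the median log2 fold change of the 6 was 0.12. Of the 6 genes in each list, edgeR called none of the hepatocyte markers and 1 Kupffer cell marker, Marco, which was higher with fenretinide. The summed markers of stellate cells (544 to 703 and 539 to 742 CPM, 10 genes) and sinusoidal endothelial cells (409 to 469 and 380 to 502 CPM, 10 genes) overlapped. Kidney markers, as a tissue that uses posterior Hox genes, were at or below 0.0503 CPM in both groups. The part of hepatocyte or Kupffer cell content in the level of Hoxd4 was not tested.

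Other HoxD genes stayed at a few counts or at 0 in the same livers. Hoxd3, which starts 9.98 kb before Hoxd4 and contains it, had 0 counts in the HFD group and 3 in the FEN-HFD group of 20 weeks. Hoxd8 had 10 and 7 counts, and Hoxd1, Hoxd10, Hoxd12, Hoxd13 and the miRNA gene Mir10b within Hoxd4 had none in either. Beyond the cluster, Mtx2 had 54.3 and 48.3 mean CPM and Lnp had 10.4 and 8.99 mean CPM (HFD and FEN-HFD). Neither was called by edgeR, with log2 fold changes of -0.17 ± 0.10 (SE) and -0.20 ± 0.13. Exons of Hoxd4 share 388 bases (13.2%) with Hoxd3 and 39.1% of their bases with Gm28230, a model that joins both genes, so that reads from such a transcript could be counted as Hoxd4. The antisense gene Hoxd3os1 covers 347 bases (11.8%) of the exons of Hoxd4. Its reads could also add to Hoxd4 where counting ignores strand, which was not tested.

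**Figure D3:**
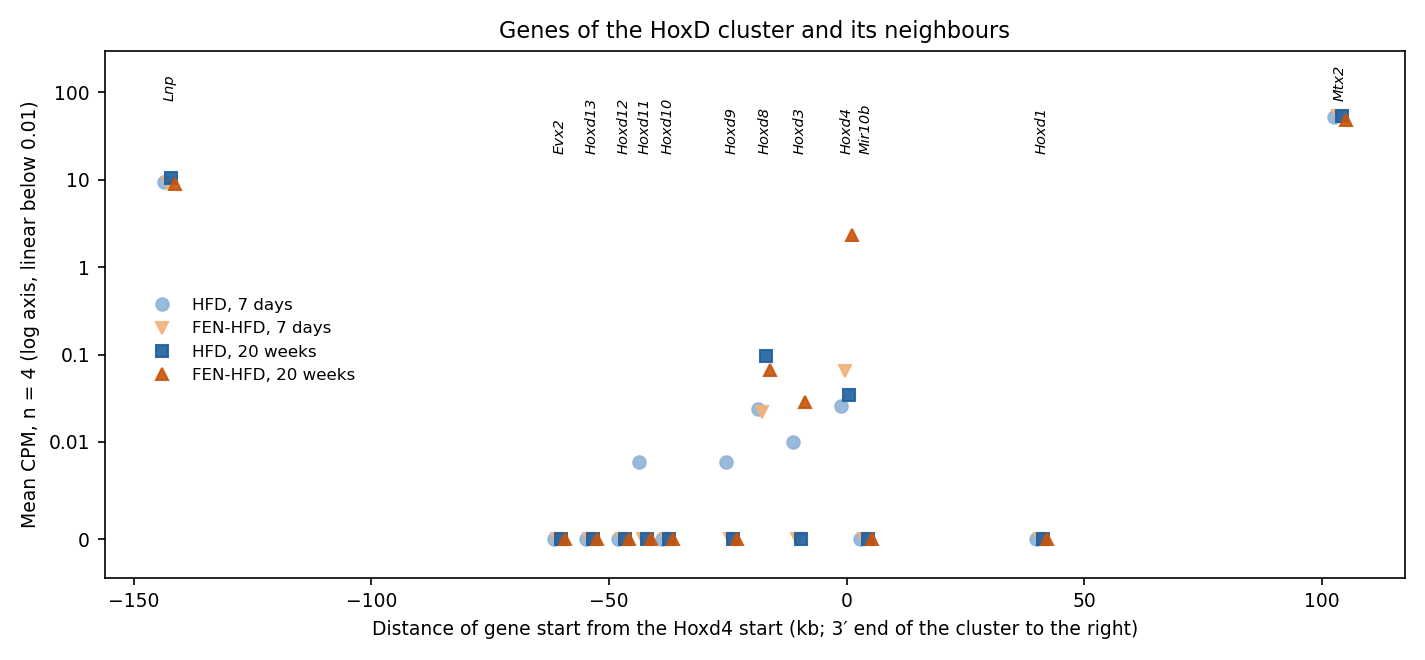
Mean CPM (n = 4 mice) of HoxD genes and their neighbours against the distance of each gene's start from that of Hoxd4, in kb, on an axis that is logarithmic above 0.01 CPM and linear below. Symbols of the 4 groups are shifted sideways slightly. Hoxd4 in the FEN-HFD livers of 20 weeks (2.32 CPM) stands above every other HoxD gene. The 4 groups lie close together within Lnp and within Mtx2.

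At 7 days, which addresses the early response to the same diet, Hoxd4 had 1, 1, 0 and 1 counts in HFD mice 142, 143, 144 and 146. It had 2, 3, 3 and 0 counts in FEN-HFD mice 61, 62, 65 and 66. The groups overlapped, and the gene was too low for the main comparison. From summed counts (8 and 3) the ratio was 2.68 with an exact binomial 95% interval of 0.644 to 15.7, and with no filter beyond 1 count the log2 fold change was 1.28 ± 0.92 (SE; unadjusted p = 0.184, edgeR). This interval covers counting error only, and within it a change in either direction was not detectable at this depth. It is not set against the interval of 20 weeks, because the difference between the durations has its own test below.

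None of the 5 Hox genes tested at 7 days was called by edgeR, where 0.0988% of all genes tested were called, and DESeq2 called none either, with 0.721% of all genes called by it. At an unadjusted p under 0.05 there were 0 with either tool. Hoxa2 had the smallest p. It had 0.376, 0.350, 0.290 and 0.438 CPM in HFD mice 142, 143, 144 and 146, and 0.486, 0.749, 0.527 and 0.364 CPM in FEN-HFD mice 61, 62, 65 and 66. These values overlapped, with a log2 fold change of 0.55 ± 0.30 (SE; unadjusted p = 0.0955, edgeR). The other 4 genes had log2 fold changes from -0.22 (Hoxa5) to 0.25 (Hoxb4), and the median of the 5 was 0.06 beside -0.01 over all genes tested. With no filter beyond 1 count, the median of 23 Hox genes was -0.41, beside -0.01 over all genes, and several of these genes had 1 to 3 counts in these livers.

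The difference between the durations was tested in 1 fit of all 16 livers. For Hoxd4 the effect at 20 weeks exceeded that at 7 days by 4.64 ± 1.51 on the log2 scale (SE; unadjusted p = 0.00715, adjusted p = 0.371, edgeR), which did not pass the threshold. DESeq2 gave 4.65 ± 1.35 with an adjusted p of 0.0644. No Hox gene was called in this test by either tool, and 0.0299% of all genes were called by edgeR and 0.766% by DESeq2. Hoxd4 alone had an unadjusted p under 0.05 with each tool. Hoxa2 had the opposite sign (-0.996 ± 0.493, SE; unadjusted p = 0.0598, edgeR).

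The FEN-HFD livers of both durations were also set side by side, a comparison added after the values of Hoxd4 had been seen and given as a description. Hoxd4 had 207 counts at 20 weeks and 8 at 7 days, a log2 difference of 5.04 ± 0.47 (SE). The 20-week mice are those of the test above. In the HFD livers, 20 weeks against 7 days, summed counts of Hoxd4 were 4 and 3 and none of 5 tested Hox genes was called by edgeR or DESeq2, while edgeR called 7.51% of all genes tested and DESeq2 12.6%. None of these 5 had an unadjusted p under 0.05 with either tool. Their log2 fold changes ran from -0.07 (Hoxa5) to 0.62 ± 0.36 (SE) for Hoxa2.

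Averaged over both durations, fenretinide raised Hoxd4 by 4.87 ± 0.64 on the log2 scale (SE; adjusted p = 0.000607, edgeR), and 2.11% of all genes tested were called. DESeq2 called 4.51% of genes and Hoxd4 among them. The other 5 Hox genes were not called by edgeR or DESeq2, with log2 fold changes from -0.16 (Hoxb3) to 0.18 (Hoxb4). This average uses the same livers as the comparisons above, and for Hoxd4 it rests on the 20-week livers (207 against 4 counts), since the 7-day livers had 8 against 3. Here too Hoxd4 passed the filter on low counts only through the FEN-HFD group of 20 weeks, so its call is a description.

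Cyp26a1 and Rarb, targets of retinoic acid outside the Hox clusters, rose at both durations. Cyp26a1 had 5.02, 3.81, 3.83 and 3.96 CPM in HFD mice 25, 28, 33 and 45 and 306, 301, 287 and 318 CPM in FEN-HFD mice 21, 22, 24 and 29. It had 3.20, 7.10, 1.10 and 8.68 CPM in HFD mice 142, 143, 144 and 146 and 220, 215, 272 and 213 CPM in FEN-HFD mice 61, 62, 65 and 66. Every treated liver was far above every HFD liver, with log2 fold changes of 6.19 ± 0.13 at 20 weeks (SE; adjusted p = 8.78e-09, edgeR) and 5.54 ± 0.60 at 7 days (adjusted p = 0.032, edgeR).

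Rarb rose by a similar amount at both durations, with log2 fold changes of 1.15 ± 0.18 at 20 weeks (SE; adjusted p = 0.0168, edgeR) and 1.16 ± 0.13 at 7 days (adjusted p = 0.00714, edgeR). Dhrs3, which reduces retinal to retinol, had 0.37 ± 0.10 and 0.24 ± 0.11 and was called at neither duration (adjusted p = 0.093 and 0.976, edgeR). In the average over both durations edgeR called Dhrs3 higher, where 2.11% of all genes tested were called in either direction. The difference between durations was 0.66 ± 0.53 for Cyp26a1 (SE; adjusted p = 0.76, edgeR) and -0.01 ± 0.22 for Rarb (adjusted p = 0.996). Of 16 tested genes on a list of retinoic acid targets, 5 were called higher at 20 weeks (among them Rarb, Cyp26a1, Cyp26b1 and Lrat) and 3 at 7 days (Rarb, Cyp26a1 and Lrat), and none lower, where 0.769% of all genes were called higher at 20 weeks and 0.0988% at 7 days. Cyp26b1, whose enzyme also degrades retinoic acid, had log2 fold changes of 1.91 ± 0.29 at 20 weeks (SE) and 2.26 ± 0.33 at 7 days, the latter not called (adjusted p = 0.0607, edgeR). The median log2 fold changes of the 16 tested genes on the list were 0.57 at 20 weeks and 0.31 at 7 days, beside 0.01 and -0.01 over all genes tested.

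**Figure D4:**
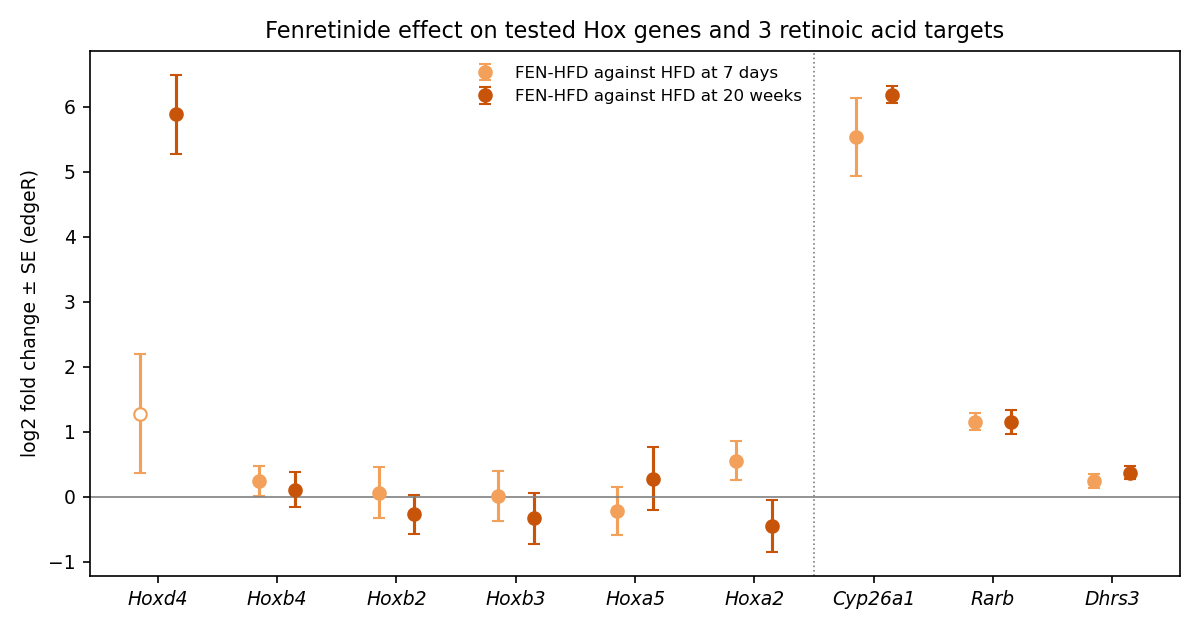
Log2 fold change ± SE (edgeR) of FEN-HFD against HFD at 7 days and 20 weeks for the 6 tested Hox genes and for Cyp26a1, Rarb and Dhrs3. The open circle is Hoxd4 at 7 days, which comes from the fit with no filter beyond 1 count. Cyp26a1 and Rarb lie well above 0 at both durations, Hoxd4 at 20 weeks has 5.88, and the other 5 Hox genes lie between -0.45 and 0.55.

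Genes whose proteins act with Hox proteins or on the clusters gave few calls. Among the TALE cofactors (Meis, Pbx, Pknox and Tgif genes, whose proteins bind DNA together with Hox proteins), none of 11 tested was called at 20 weeks and none of 10 at 7 days. At an unadjusted p under 0.05 there were 2 at 20 weeks, 1 higher and 1 lower, and 2 at 7 days, both higher, a limit that 18.5% of all genes tested passed at 20 weeks and 5.08% at 7 days. Meis1, a known retinoic acid target that is also on that list, was the 1 called on average over both durations (log2 fold change 0.47 ± 0.10, SE; adjusted p = 0.0189, edgeR). None of 39 Polycomb and trithorax genes, whose proteins keep Hox clusters silent or active, was called for fenretinide at either duration. At an unadjusted p under 0.05 there were 6 at 20 weeks, which is near the 18.5% of all genes, and 0 at 7 days. Rybp, a Polycomb subunit, had 0.39 ± 0.14 at 20 weeks (SE; adjusted p = 0.171, edgeR).

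Other homeobox genes used by liver cells, such as Prox1, a regulator of hepatocyte identity, gave 0 calls of 20 tested at 20 weeks and 0 of 21 at 7 days. Prox1 had 0.40 ± 0.14 at 20 weeks (SE; adjusted p = 0.169, edgeR), and 2 and 0 genes of this list had an unadjusted p under 0.05. The ParaHox genes, relatives of the Hox genes outside the clusters, had counts for 2 of 6 and none was tested. Of 28 listed noncoding RNAs of the clusters, 11 were matched to a row, 2 had a count and none was tested. None of the neighbours of the clusters was called at 20 weeks (16 tested) or at 7 days (17 tested), with 1 at an unadjusted p under 0.05 at each.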

How the data were processed

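RNA-seq was done on 16 livers, 4 in each of 4 groups, with 1 library per mouse. The deposited table holds raw counts per gene that the authors made from reads aligned to mm10. The submitters' processing notes name STAR 2.0 and DESeq2 1.6. The counting program, its annotation and its use of strand are not given in the sources used here, and the labels and the methods describe the library kit differently, so whether counting used strand was not settled.

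Genes were kept by filterByExpr and tested with the edgeR quasi-likelihood test (version 4.0.16 in R 4.3.3, TMM factors, robust) on the whole table, with Benjamini-Hochberg adjustment over all genes tested and a threshold of 0.05. Each comparison used its own groups, except that the average over durations and the difference between durations used all 16 libraries. Alternatives were DESeq2 1.42.0, RLE size factors, other filters, leaving out Rn45s and Lars2, 1 fit of all libraries, and leaving out each mouse. Every Hox gene kept in any comparison is named with its values. Some genes are not reported here. The statistics were tested on simulated data. Exonic lengths came from GENCODE M21 and positions from RefSeq. The Hox genes and the other lists were chosen with earlier results of these data known.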

Additional observations from a re-analysis of the deposited data

Results flagged for a closer look

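Of 118 groups of 4 values looked at, 13 had 1 library far from the other 3 by Dixon's test, which sets the gap to the nearest value against the range of the group. Chance gives about 1 such group in 20.

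Among the Hox genes, Hoxc5 was at 0.323 CPM in HFD mouse 45 of 20 weeks, against 0 to 0.0377 CPM in its group. Hoxa4 was at 0.312 CPM in FEN-HFD mouse 29 of 20 weeks, against 0.0503 to 0.0783 CPM, which rests on 3 counts. Hoxd8 was at 0.0955 CPM in HFD mouse 143 of 7 days, also from 3 counts, with none in the other 3 mice.

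Cyp26a1 was at 272 CPM in FEN-HFD mouse 65 of 7 days (213 to 220 in the others) and at 5.02 CPM in HFD mouse 25 of 20 weeks (3.81 to 3.96). Mouse 25 also had the lowest T and NK cell markers of its group, 2.30 CPM against 3.16 to 3.27.

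The other 7 values lay in 3 libraries whose Hox counts are described above. In FEN-HFD mouse 29 of 20 weeks, Rn45s took 53.1% of counts, Kupffer cell markers summed to 947 CPM (405 to 464 in the others) and B cell markers to 28.4 CPM (2.31 to 5.43). In HFD mouse 45 of 20 weeks, muscle markers summed to 1119 CPM (0.0620 to 0.0982). In HFD mouse 143 of 7 days, hepatocyte markers summed to 65230 CPM (80071 to 81794), Kupffer cell markers to 909 CPM (403 to 480) and muscle markers to 0.795 CPM (0.0627 to 0.119). Their part in the Hox values was not tested.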

How the results depend on the processing

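Hoxd4 stayed called at 20 weeks and on average over both durations under every alternative that tested it. With at least 10 counts required in every library it was not tested, and 0 Hox genes were called in both comparisons. Detection depended on the limit, with 16 Hox genes at 3 counts in 1 library, 14 at 10 counts in all, and 21 to 25 when 1 mouse was left out. Of 521 log2 fold changes under alternatives, 495 kept direction and call, and 26 changed sign, all on leaving out a mouse and none of them called. Leaving out 1 mouse gave, at 7 days, -0.20 to 0.27 for Hoxb3, -0.32 to 0.29 for Hoxb2 and -0.42 to 0.11 for Hoxa5. Between HFD groups it gave -0.0053 to 0.21 for Hoxb4 and -0.60 to 0.26 for Hoxa5. Averaged over durations it gave -0.29 to 0.0032 for Hoxb2, -0.0634 to 0.24 for Hoxa2 and -0.0923 to 0.23 for Hoxa5. For the difference between durations it gave -0.26 to 0.0340 for Hoxb4 and -0.55 to 0.0501 for Hoxb2. Between FEN-HFD groups it gave -0.15 to 0.11 for Hoxb4, -0.0132 to 0.40 for Hoxb3 and -0.0497 to 0.55 for Hoxb2. Over all genes at 20 weeks, edgeR called 242, DESeq2 1001 and the fit of all 16 libraries 661, with 36 to 424 on leaving out a mouse. DESeq2 called 95 against 13 at 7 days, 1756 against 996 between HFD groups, 653 against 282 on average and 114 against 4 for the difference. No paired analysis was possible because no mouse number was shared between groups. Hox counts were 61 to 214 per library, and whether depth or the spread between mice limits the genes not called was not tested.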
